A study of Mus musculus with 47 samples.

Results

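The genes described here encode the subunits of the proteasome, its activators and inhibitor, and the chaperones that assemble it. They were chosen by name: a gene symbol on the array that began with Psma, Psmb, Psmc, Psmd, Psme, Psmf or Psmg and a number, leaving out the inducible subunits Psmb8 and Psmb9. The rule found 46 of the 12393 genes with a probe set of their own. Of these, 44 encode a subunit, a regulator or an assembly chaperone, and 43 of the 44 passed the filter on low signals, with the alpha subunit of the testis, Psma8, left out at signals of 0.467 to 219. The other 2, Psmc3ip and Psme3ip1, match the pattern but encode partner proteins, and they were kept out of the family counts. Psme2 shares its probe set with Psme2b and has no value of its own here.

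RNA was measured in 47 mouse T-cell lymphoblastic tumours on Affymetrix arrays. The titles place them in 14 backgrounds. The single transgenes are TLX1 (6 tumours), ThPOK (3), LMO1 (3), beta-catenin (3), Nup98HoxD13 (3), Tal1 (2) and Pokemon (2). The double transgenic tumours carry olig1-LMO1 (3) or Tal1-LMO2 (3). The knockouts are p53 (3), E2A (2) and rag E2A (2), and 3 tumours carry the Ikaros Plastic allele. The last 9 come from retroviral insertional mutagenesis on a Cdkn2a knockout background, written Cdkn2a RIM here. The genotype field separates the TLX1 tumours, called positive, from the other 41, called negative. The labels name no strain, age, transgene promoter or treatment, and all samples used here are tumours, with no normal thymus among them. They do not say whether tumours of a background came from separate mice, and p-values measure the spread between these samples only.

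The proteasome degrades proteins that carry ubiquitin chains. Its core particle is a barrel of outer alpha rings and inner beta rings, and the beta subunits Psmb5, Psmb6 and Psmb7 carry the peptidase sites. The regulatory particle that caps it has a base, with a ring of Psmc ATPases that unfold the substrate, and a lid, in which Psmd14 removes ubiquitin. In lymphoid cells, Psmb8, Psmb9 and Psmb10 replace the standard catalytic subunits to form the immunoproteasome, and Psme1 and Psme2 form an alternative cap. Subunit genes are known to be induced together by the factor Nfe2l1 through antioxidant response elements in their promoters.

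Promoter sequence is shown because many members moved together in a few backgrounds. RefSeq promoters (GRCm38.p6) were matched for 36 of the 43 members, and the 250 bases before each start were searched on both strands for 4 motifs. The ETS core CCGGAAG was found in 12 of the 36 members (33.3%), against 7.83% of the 27018 genes in the promoter table. The NF-Y box CCAAT was found in 12 members (33.3%), against 37.5% of all genes. The antioxidant response element TGACNNNGC was found in 5 members (13.9%), against 11.5%, and the E box CACGTG in 4 (11.1%), against 6.86%. Up to 2 promoters were searched per gene, and matches of different motifs were counted separately and can share bases. A match describes letters in the window and is not evidence of binding. The promoters below are a selection. They belong to 5 members that were called lower in the Ikaros Plastic tumours, by the threshold given below, and to the catalytic subunit Psmb5. Psmb5 was not called there, with a difference of −0.34. Each run is the 150 bases before the annotated start, with the matched motif in capitals (ATTGG is CCAAT on the other strand). The first promoter of Psma6 lies at chr12:55384072-55384221 and the second at chr12:55398675-55398824, both on the plus strand. The Psmd4 promoter lies at chr3:95042615-95042764 on the minus strand, that of Psmd6 at chr14:14120946-14121095 on the minus strand and that of Psmb3 at chr11:97703284-97703433 on the plus strand. The Psme4 promoter lies at chr11:30771625-30771774 on the plus strand and that of Psmb5 at chr14:54617996-54618145 on the minus strand.
Psma6, first start: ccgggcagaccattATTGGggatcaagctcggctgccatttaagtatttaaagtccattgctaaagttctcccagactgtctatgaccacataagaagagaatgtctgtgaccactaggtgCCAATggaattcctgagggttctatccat
Psma6, second start: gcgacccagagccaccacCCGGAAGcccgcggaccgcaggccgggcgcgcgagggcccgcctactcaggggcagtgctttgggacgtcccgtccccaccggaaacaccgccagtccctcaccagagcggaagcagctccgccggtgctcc
Psmd4: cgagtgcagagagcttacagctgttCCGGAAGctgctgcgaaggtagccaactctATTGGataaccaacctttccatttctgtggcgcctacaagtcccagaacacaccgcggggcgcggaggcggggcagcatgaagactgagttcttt
Psmd6: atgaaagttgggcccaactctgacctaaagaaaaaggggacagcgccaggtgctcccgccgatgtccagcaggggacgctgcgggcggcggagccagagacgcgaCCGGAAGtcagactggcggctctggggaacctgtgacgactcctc
Psme4: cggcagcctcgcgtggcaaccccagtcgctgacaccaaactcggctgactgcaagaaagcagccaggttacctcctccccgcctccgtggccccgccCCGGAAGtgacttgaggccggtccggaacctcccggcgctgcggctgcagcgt
Psmb3: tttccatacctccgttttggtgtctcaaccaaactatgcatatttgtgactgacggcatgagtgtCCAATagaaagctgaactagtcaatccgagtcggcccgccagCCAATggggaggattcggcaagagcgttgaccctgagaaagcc
Psmb5: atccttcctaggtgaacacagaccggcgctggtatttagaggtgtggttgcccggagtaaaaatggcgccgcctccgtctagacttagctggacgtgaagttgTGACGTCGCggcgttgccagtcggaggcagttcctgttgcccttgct

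Values are MAS5 signals, which the authors scaled to an equal trimmed mean per array. Differences are log2 differences between the mean of a background and the mean of the other 13 backgrounds, each weighted equally, with the standard error of the limma fit, and a member is called where the Benjamini-Hochberg adjusted p over the 8814 genes tested is below 0.05. A gene not in the family is called higher or lower by the same rule. The contrasts share tumours, so calls in different backgrounds are not independent of each other. Signals of different probe sets are not compared, since they depend on the probes.

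Some arrays stood apart or went against their labels. Tumour 2 of the p53 knockout background had a mean T lymphoblast marker level of −3.87 (log2, centred over tumours), against −0.99 to 0.85 in all tumours of other backgrounds, with an endothelial marker mean of 4.42 and a stromal marker mean of 2.97. The log2 ratio of 3′ to 5′ Gapdh probe sets, a sign of RNA degradation, was 2.86, 2.37 and 1.87 in TLX1 tumours 2, 5 and 6, and at most 0.71 outside the TLX1 background. The same ratio for Actb was 2.72, 2.73 and 2.00 in those 3 tumours and 1.31 in TLX1 tumour 3. Outside the TLX1 background it was highest in p53 knockout tumours 1 and 2 (1.22 and 0.80) and Tal1 tumour 1 (1.13). The part of the Actb ratio in the calls of these backgrounds was not tested. Lmo1 signals were 586 to 2526 in the tumours labelled Nup98HoxD13 and 11.1 to 34.3 in those labelled olig1-LMO1, which do not match those titles. No scan date or batch is given. In bulk tumour RNA, fewer cells of a type and less RNA per cell cannot be told apart.

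All 43 members had signals above the array median on all 47 arrays. Over the 14 backgrounds, 32 of the 43 differed by the F test (74.4%), against 68.1% of all genes tested, so the share of changing members was close to that of genes in general. In the core particle, 6 of 7 alpha subunits and 5 of 7 standard beta subunits differed, as did Psmb10. In the base, 2 of 6 ATPases (Psmc1 and Psmc3) and all 3 non-ATPase subunits differed. The count was 7 of 8 for the lid, 3 of 3 for the activators Psme1, Psme3 and Psme4, 1 of 1 for the inhibitor Psmf1, 1 of 3 for the base chaperones and 3 of 4 for the core chaperones. The lowest adjusted p-values belonged to the ubiquitin receptor Psmd4 (1.52e-06), the alpha subunit Psma6 (1.33e-05) and the activator Psme4 (3.45e-05). The peptidase subunits Psmb5 and Psmb7 did not pass, with adjusted p of 0.22 and 0.206, although Psmb7 passed without Tal1 tumour 1 (adjusted p = 0.034).

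The family mean, the average log2 value of the 43 members in a tumour, ran from 9.51 to 10.44 with a median of 10.12 and an SD of 0.19 over the 47 tumours. It was 10.0025, 9.51 and 9.83 in the 3 Ikaros Plastic tumours, the lowest background mean at 9.78 ± 0.25 (SD, n = 3). The beta-catenin tumours were next, at 9.93 ± 0.10 (SD, n = 3). The highest backgrounds were rag E2A knockout, at 10.28 ± 0.22 (SD, n = 2), and ThPOK, at 10.27 ± 0.10 (SD, n = 3). After quantile normalization ThPOK was highest (10.27), followed by Pokemon (10.22) and rag E2A knockout (10.21), and the difference of the beta-catenin tumours went from −0.21 to −0.13. The groups overlapped: 11 of the 44 tumours of other backgrounds lay at or below the highest Ikaros Plastic tumour. The mean of all genes tested went the other way in the Ikaros Plastic tumours, 0.19 above the other backgrounds, while the family mean had a difference of −0.37. After quantile normalization that family difference was −0.25. Median array signals in the Ikaros Plastic tumours were 94.2 to 106.4, with a mean 31.1 above the other backgrounds, although trimmed means were equal. The part of this in the differences was not tested. This family mean is a description and was given no test.

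The mean over the 14 subunits of the core rings was lowest in Ikaros Plastic, at 10.51 ± 0.16 (SD, n = 3), a difference of −0.49 from the other backgrounds, and next in beta-catenin, with a difference of −0.25. It was highest in ThPOK, at 11.19 ± 0.11 (SD, n = 3), followed by rag E2A knockout (11.15 ± 0.18, SD, n = 2) and Tal1 (11.14 ± 0.34, SD, n = 2), which do not differ beyond their spread. The mean over the 8 lid subunits had the same lowest pair, at 9.86 ± 0.29 (SD, n = 3) in Ikaros Plastic and 9.999 ± 0.14 (SD, n = 3) in beta-catenin. Its highest values were 10.35 ± 0.29 (SD, n = 2) in rag E2A knockout and 10.34 ± 0.26 (SD, n = 3) in p53 knockout. The mean over the base subunits was 9.87 ± 0.28 (SD, n = 3) in Ikaros Plastic and 10.41 ± 0.23 (SD, n = 3) in p53 knockout. The activators had another order. Their mean was lowest in Tal1, at 9.46 ± 0.18 (SD, n = 2), and in Cdkn2a RIM, at 9.51 ± 0.19 (SD, n = 9), and highest in the tumours labelled Nup98HoxD13, at 10.14 ± 0.27 (SD, n = 3). In the Tal1 tumours the core mean was thus among the high ones and the activator mean the lowest. The core mean was 10.90 in tumour 1 and 11.38 in tumour 2, so its high value rests on tumour 2. These means average log2 values of different probe sets, so they compare backgrounds and not parts of the complex, and they were not tested.

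**Figure D1:**
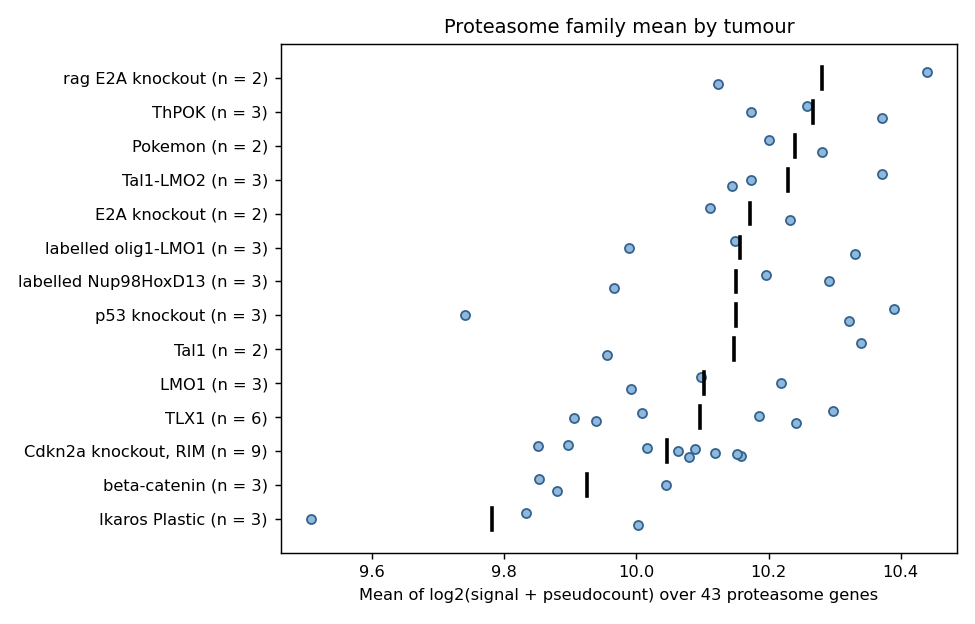
Mean log2 (signal + pseudocount) over the 43 proteasome members in each of the 47 tumours, by titled background; points are tumours and bars are background means, and RIM stands for retroviral insertional mutagenesis. The Ikaros Plastic tumours have the lowest mean (9.78) and the rag E2A knockout tumours the highest (10.28), with overlap between most backgrounds.

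The Ikaros Plastic tumours had lower levels of many members. Of the 43 members, 17 were lower (39.5%) and 0 were higher, against 7.85% lower and 15% higher among all genes tested, and 41 of the 43 differences were negative. At an unadjusted p below 0.05 the limma fit also gave 0 higher, and 21 lower. The median difference was −0.34 for the members and 0.09 for all genes. The lower members were mostly in the core particle: 5 of 7 alpha subunits (Psma2, Psma3, Psma4, Psma5 and Psma6) and 4 of 7 beta subunits (Psmb1, Psmb3, Psmb4 and Psmb6). They also held 1 of 6 ATPases (Psmc2), 1 of 3 other base subunits (Psmd4), 3 of 8 lid subunits (Psmd6, Psmd11 and Psmd14), 1 of 3 activators (Psme4) and 2 of 4 core chaperones (Psmg1 and Psmg3).

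Psma6, a subunit of the alpha ring that gates the core, had signals of 1956, 1531 and 1749.8 in the Ikaros Plastic tumours, against a lowest of 1958, a median of 3389.8 and a highest of 5011 elsewhere. All 3 tumours thus lay below all 44 others, and the difference was −0.97 ± 0.14 (SE), or 1.96-fold lower (adjusted p = 1.12e-05). Its 3 other probe sets gave differences of −0.77 to −0.36. The beta-ring subunit Psmb1 also fell below every other tumour, at 1453, 1328 and 1525 against 1551 to 2903 (−0.52 ± 0.12, adjusted p = 0.00197). Psmb3, a structural beta subunit, had signals of 1247, 875 and 1079, against 1019, 1763 and 3499 as lowest, median and highest elsewhere (−0.76 ± 0.18, adjusted p = 0.00324). The catalytic subunit Psmb6, which carries the caspase-like site, was 1101, 826 and 900.1, against 811, 1527 and 2639 (−0.69 ± 0.17, adjusted p = 0.0037). The other standard catalytic subunits were not called: Psmb5 was at 1408, 1153 and 1183, against a median of 1445 elsewhere, and Psmb7 at 2714, 2716 and 2456, against 3206.

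In the Ikaros Plastic regulatory particle, Psmd4, which binds ubiquitin chains, had signals of 885, 532 and 788, against 622, 1112 and 1743 as lowest, median and highest elsewhere. Tumour 2 was the lowest of all tumours, while tumours 1 and 3 overlapped with the others, and the difference was −0.63 ± 0.14 (adjusted p = 0.00142). Another probe set of Psmd4 gave 0.76, the opposite direction. The lid subunit Psmd6 was at 1174, 875 and 1037, against a median of 1426 (−0.60 ± 0.15, adjusted p = 0.00426). The core chaperone Psmg3 was at 283, 124 and 282, against 381 (−0.82 ± 0.22, adjusted p = 0.00649). Of the 17 called members, 10 had further probe sets, and all probe sets shared the sign in 6 of them. Without tumour 2, 4 members remained lower by the same threshold: Psma3, Psma6, Psmb1 and Psme4. After quantile normalization the count was 9 lower, against 9.88% lower and 7.92% higher among all genes. The median of all genes then moved by −0.16, and the members' median relative to it went from −0.43 to −0.13. Stromal markers moved with this background: 5 of 8 were higher and the stromal mean was 0.85 to 1.66, against a median of 0.39 elsewhere, while 1 of 7 T lymphoblast markers, Thy1, was lower. Of the other lists, 2 of 10 myeloid markers (Csf1r and Adgre1), 1 of 7 endothelial markers (Vwf) and 1 of 5 B cell markers (Jchain) were higher. The endothelial mean was 0.36 to 0.85, against a median of 0.07 elsewhere, the B cell mean 0.33 to 1.06, against −0.09, and the myeloid mean −0.20 to 0.84, against 0.00. Their part in the result was not tested.

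Of the members with a promoter searched, 16 were called lower in the Ikaros Plastic tumours. Of these, 7 held the ETS core (43.8%), 7 the NF-Y box, 1 the antioxidant response element and 1 the E box. Of the 20 members that were not called lower, 5 held the ETS core, 5 the NF-Y box, 4 the antioxidant response element and 3 the E box. Not called does not mean unchanged, since 41 of the 43 members had negative differences. Among the printed promoters, the second start of Psma6, Psmd4, Psmd6 and Psme4 carry CCGGAAG, and that of Psmb5 carries the antioxidant response element. The printed set is a selection and does not contrast lower with other members. Psmb6, which was lower and is not printed, also carries the antioxidant response element. Psma2, Psma3, Psma4, Psma5, Psmb3, Psmb4, Psmb6, Psmd14 and Psmg3 were called lower and do not hold the ETS core. These counts are a description of the windows and were not tested.

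The beta-catenin tumours had a like pattern on fewer members. There were 9 lower and 0 higher, or 20.9% lower, against 7.42% lower and 11.4% higher among all genes, and 35 of 43 differences were negative (median −0.23, against 0.03 for all genes). At an unadjusted p below 0.05, limma gave 2 higher and 13 lower. The lower members were Psma5 and Psma6 of the alpha ring, Psmb3 and Psmb6 of the beta ring, the immunoproteasome subunit Psmb10, the base subunit Psmd4, the lid subunits Psmd6 and Psmd11, and the chaperone Psmg4. Psmb6 was at 878, 958 and 811, against 826, 1527 and 2639 as lowest, median and highest elsewhere, with all 3 tumours near the bottom of that range (−0.78 ± 0.17, adjusted p = 0.00101). Psmd6 was at 978, 1085 and 993, against 875 to 2454 (−0.60 ± 0.15, adjusted p = 0.00402), while its other probe set gave 0.10. Psmd4 was at 733, 907 and 690.1 (−0.52 ± 0.14, adjusted p = 0.00602), and its other probe sets gave 0.02 and 0.74. Of the 9 called members, 6 had further probe sets, and all probe sets shared the sign in 2 of them.

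Psmb10, the immunoproteasome counterpart of Psmb7, was at 508, 323 and 385 in the beta-catenin tumours, against a median of 752 elsewhere (−0.84 ± 0.29, adjusted p = 0.0394). The other immunoproteasome subunits were lower there as well, Psmb8 by a difference of −1.21 (adjusted p = 0.00076) and Psmb9 by −1.30 (adjusted p = 0.01). Of 10 genes of the immunoproteasome and peptide-loading list, 3 were lower (Psmb8, Psmb9 and Tap2) and 1 was higher (Pdia3). Among all genes, 7.42% were lower and 11.4% higher. The median difference of the list was 0.04. Without tumour 3, 2 members were called (Psmb6 and Psmd6), and without tumour 1, 3 (the same pair and Psmg4). After quantile normalization 2 were higher (Psmd8 and Psme3) and 6 lower, against 9.04% higher and 8.13% lower among all genes. Of 5 B cell markers, 4 were higher in these tumours, with a marker mean of 1.46 to 2.97 against a median of −0.09 elsewhere. Of 10 myeloid markers, 2 (Lyz2 and Itgam) were higher, with a mean of 0.40 to 1.76 against −0.03, and of 7 endothelial markers 1 (Vwf) was lower. Their part in the result was not tested.

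**Figure D2:**
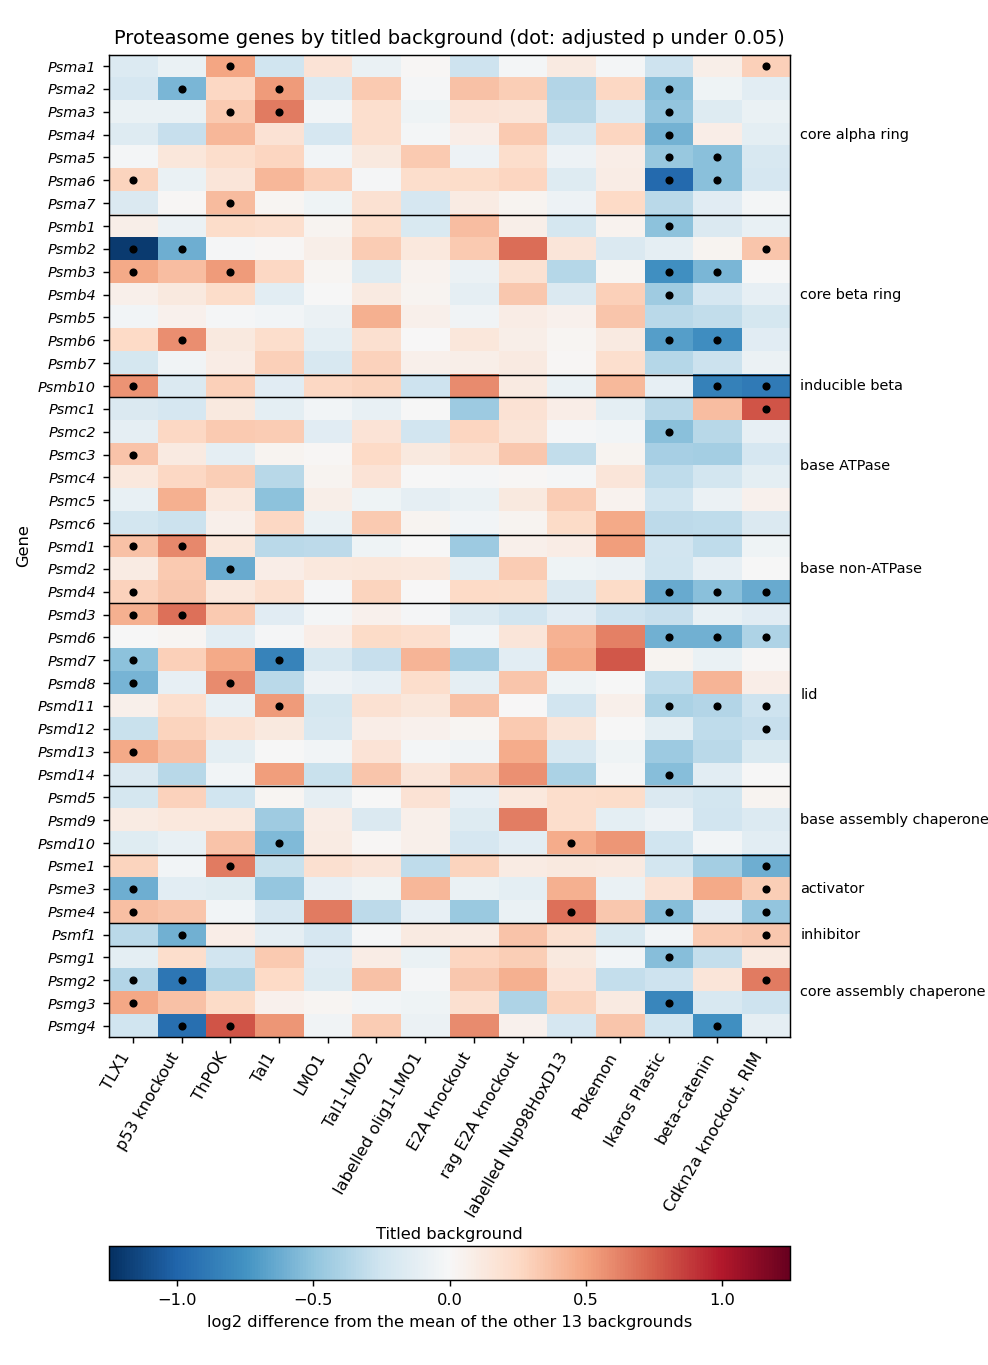
Log2 difference of each of the 43 members in each background from the mean of the other 13 backgrounds, with members ordered by role with a dot on each called difference and colour for its size; RIM stands for retroviral insertional mutagenesis. The Ikaros Plastic column has 17 called members, all lower, and the beta-catenin column 9, all lower, whereas the TLX1 column holds 10 higher and 5 lower.

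In the TLX1 tumours the members moved in both directions: 10 were higher (Psmd13, Psmb3, Psmd1, Psmd3, Psme4, Psmb10, Psmg3, Psmc3, Psmd4 and Psma6) and 5 were lower (Psmb2, Psme3, Psmd8, Psmd7 and Psmg2). These shares stood against 19% higher and 12.5% lower among all genes. Psmb2, a structural beta subunit, was at 870.1, 336, 430.1, 684 and 395 in tumours 1 to 5 and 443 in tumour 6, against 406, 1197 and 1908 as lowest, median and highest elsewhere. Only 4 of the 41 other tumours lay at or below the highest TLX1 tumour, and the level was 2.29-fold lower (−1.20 ± 0.16, adjusted p = 9.26e-07). The nuclear activator Psme3 was at 179 to 531 with a median of 362, against a median of 518 (−0.61 ± 0.14, adjusted p = 0.000915). The lid subunit Psmd8 was at 556 to 1542 with a median of 903, against 1394 (−0.58 ± 0.14, adjusted p = 0.00142).

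The higher members in the TLX1 tumours included the lid subunit Psmd13, at 649 to 1236 with a median of 876, against 649 elsewhere (0.48 ± 0.13, adjusted p = 0.00649). Psmb3 was at 1650.5 to 2718 with a median of 2462, against 1714 (0.47 ± 0.13, adjusted p = 0.0068), and the base scaffold Psmd1 at 806 to 1366 with a median of 1035, against 790.1 (0.37 ± 0.11, adjusted p = 0.0103). Ranges overlapped for each of these. Of the 15 called members, 8 had further probe sets, and all probe sets shared the sign in 4 of them. With the Gapdh 3′ to 5′ ratio as a covariate, 1 member was called, Psmd1 higher. Psmb2 then stood at −0.59, uncalled, and Psme3 (0.06) and Psmd8 (0.12) changed sign. Without tumours 2, 5 and 6, which had the high ratios, Psmd1 was higher (0.54) and Psmb2 lower (−0.85), and no other member was called. Without tumour 4, 7 members were called and Psmd1 was not among them. After quantile normalization the split was 7 higher and 7 lower, against 14.1% higher and 16.7% lower among all genes. Of 8 stromal markers 7, and of 10 myeloid markers 5, were higher in this background, with a stromal mean of −0.52 to 1.77 and a myeloid mean from 0.00 to 3.99. Of 7 endothelial markers 2 (Tie1 and Vwf), and of 5 B cell markers 2 (Ighm and Jchain), were higher as well, and the part of these markers was not tested.

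**Figure D3:**
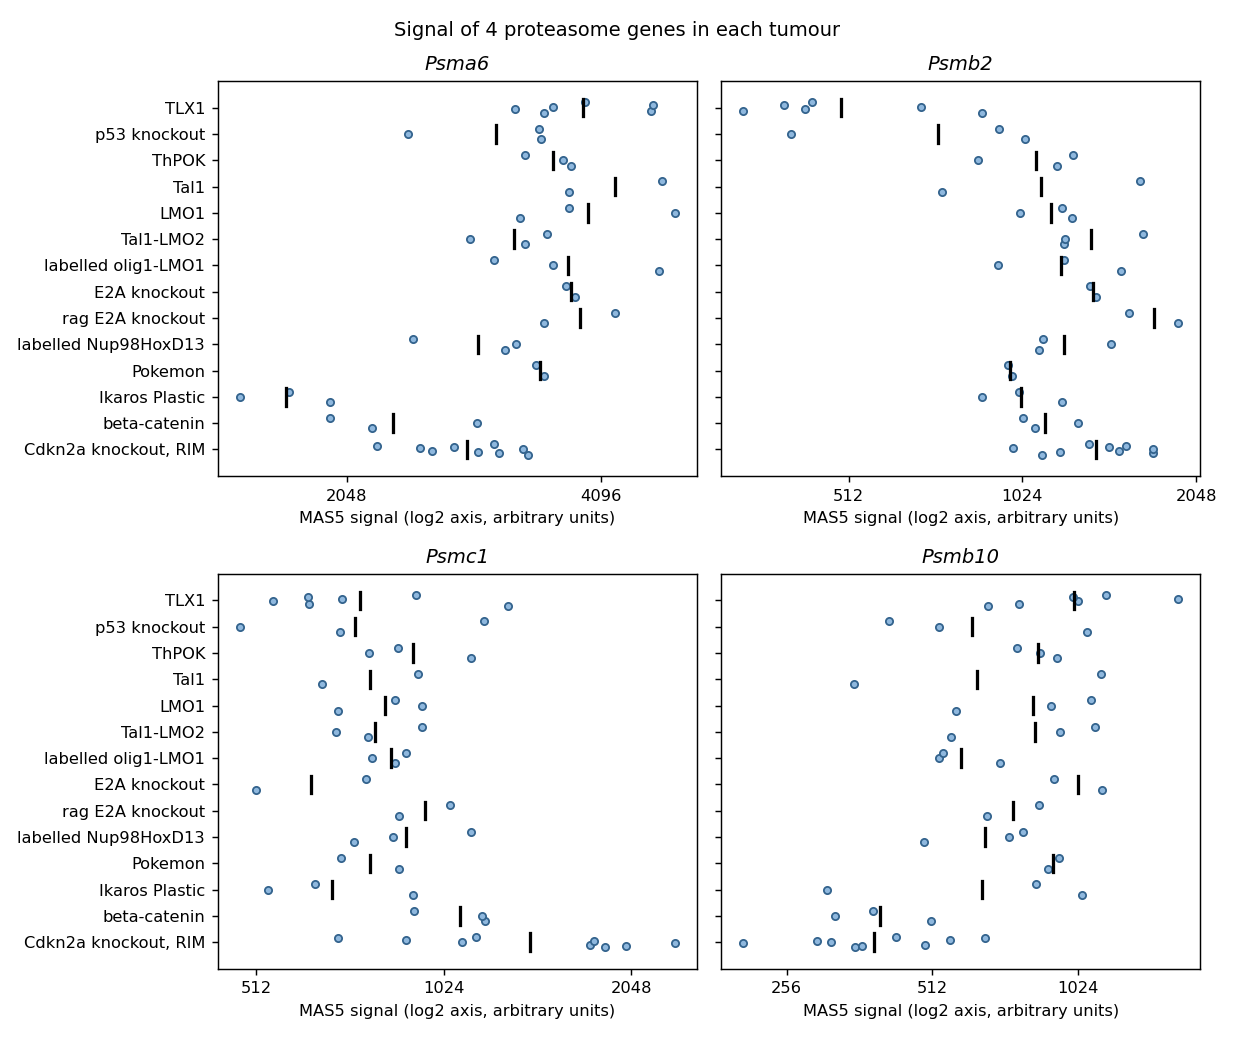
MAS5 signal (log2 axis, arbitrary units) of Psma6, Psmb2, Psmc1 and Psmb10 in each tumour, by background. Points are tumours, bars are geometric means of the signals in a background, and RIM stands for retroviral insertional mutagenesis. Psma6 is lowest in the 3 Ikaros Plastic tumours, Psmb2 is low in the TLX1 tumours, and the Cdkn2a RIM tumours reach the highest Psmc1 signals (up to 2411) and the lowest Psmb10 signal (208).

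The 9 Cdkn2a RIM tumours had 6 members higher (Psmg2, Psmc1, Psma1, Psmf1, Psme3 and Psmb2) and 7 lower (Psmd4, Psme1, Psmb10, Psme4, Psmd6, Psmd11 and Psmd12), against 16.1% higher and 14.6% lower among all genes. Psmd4 was at 622 to 938 with a median of 702, against 532, 1174 and 1743 as lowest, median and highest elsewhere (−0.63 ± 0.08, adjusted p = 9.39e-07). Another probe set of it gave 0.59. Psme1, a subunit of the interferon-induced cap, was at 599 to 1776 with a median of 1331, against 1835 (−0.61 ± 0.12, adjusted p = 0.00021). Psmb10 was at 208 to 657 with a median of 367, against 813 (−0.88 ± 0.18, adjusted p = 0.00038). Genes of antigen processing were also lower here: of 10 genes of the immunoproteasome and peptide-loading list, 5 were lower (Psmb9, Tap1, Tapbp, B2m and Irf1) and 1 was higher (Pdia3).

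Of the members higher in the Cdkn2a RIM tumours, Psmg2, a chaperone that builds the alpha ring, was at 772 to 1898 with a median of 1012, against 234, 653 and 1062 elsewhere (0.65 ± 0.12, adjusted p = 6.03e-05). Another probe set of Psmg2 gave 0.68. The ATPase Psmc1 was at 693 to 2411 with a median of 1757, against 482 to 1301 with a median of 852 (0.78 ± 0.16, adjusted p = 0.000221). Psma1 was at 1274 to 1898 with a median of 1818, against 1379 (0.30 ± 0.08, adjusted p = 0.00672). The inhibitor Psmf1 was at 290.4 to 389 (0.34, adjusted p = 0.0229), while its 2 other probe sets past the filter gave −0.28 and 0.05. Of 7 T lymphoblast markers, 2 (Cd3e and Thy1) were lower, with a marker mean of −0.99 to 0.05 against a median of 0.10 elsewhere. Of 8 stromal markers, 3 (Col3a1, Sparc and Lum) were higher and 1 (Pdgfrb) was lower, with a mean of 0.05 to 1.14 against 0.39. Of 10 myeloid markers, 3 (Lyz2, Cd68 and Adgre1) were higher, with a mean of −0.48 to 0.35 against −0.01, and of 7 endothelial markers 1 (Vwf) was lower. Their part was not tested. Of the 13 called members, 7 had further probe sets, and all probe sets shared the sign in 2 of them.

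In the p53 knockout tumours, 3 members were higher (Psmd1, Psmd3 and Psmb6) and 5 lower (Psmg2, Psmg4, Psma2, Psmf1 and Psmb2), against 12.4% higher and 9.34% lower among all genes. Tumour 2, the array with few T lymphoblast markers, was the lowest of the 3 for each lower member except Psmf1. Psmg2 was at 517, 234 and 445, against 332, 766 and 1898 as lowest, median and highest elsewhere (−0.90 ± 0.19, adjusted p = 0.000834). Psmg4, a chaperone of the core, was at 507, 132 and 281, against a median of 478 (−0.94 ± 0.20, adjusted p = 0.00108). Psma2 was at 2494, 1104 and 2465, against 2584 (−0.57 ± 0.13, adjusted p = 0.00215), so tumours 1 and 3 were near the others. Psmd1 was at 1374, 1020.5 and 1289, against 809.9 (0.60 ± 0.15, adjusted p = 0.00446). Psmb6 was at 2578, 1422 and 2639, against 1461 (0.58 ± 0.17, adjusted p = 0.0123), and the lid subunit Psmd3 at 2167, 1001 and 1406, against 911 (0.68 ± 0.20, adjusted p = 0.0123). Without tumour 2, 5 members were higher (Psmb3, Psmb6, Psmd1, Psmd3 and Psmd5) and 0 were lower. Leaving it out also moved counts elsewhere: Ikaros Plastic had 19 lower, Cdkn2a RIM 6 higher and 10 lower, and TLX1 10 higher and 8 lower. Of backgrounds with no call, LMO1 then had Psme4 higher and Tal1-LMO2 had Psma2 higher. Without p53 knockout tumour 1 the calls were 1 higher and 4 lower. After quantile normalization they were 5 and 5, against 9.69% higher and 11.5% lower among all genes. Of 7 endothelial markers 6, of 8 stromal markers 6 and of 10 myeloid markers 1 were higher. Of 7 T lymphoblast markers 4 were lower. In tumours 1 and 3 the endothelial means were 0.35 and 0.42, against a median of 0.07 elsewhere. Their stromal means were 0.68 and 0.75, against 0.39, and their T lymphoblast means 0.26 and 0.19, against 0.05. The part of these markers was not tested.

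In the ThPOK tumours, 7 members were higher and 1 was lower, against 6.6% higher and 5.21% lower among all genes. Psmg4 was at 867, 912 and 766, against 132, 468 and 933 as lowest, median and highest elsewhere (0.78 ± 0.20, adjusted p = 0.00968). Psma1 was at 2233, 1758 and 1921, against 1425 (0.49 ± 0.14, adjusted p = 0.016), and Psme1 at 2889, 2703 and 2397, against 1768 (0.65 ± 0.19, adjusted p = 0.0253). The other higher members were Psma3, Psma7, Psmb3 and Psmd8. The lower member was Psmd2, a base scaffold that receives substrates, at 876, 739 and 928, against 907 to 1966 elsewhere, with 1 of 44 other tumours at or below the highest ThPOK tumour (−0.63 ± 0.13, adjusted p = 0.00235). Without tumour 1 the calls were Psmd2 alone, without tumour 2 Psma1 alone, and without tumour 3 Psmg4 and Psmd2. The calls were near the threshold: leaving out any of 20 tumours of other backgrounds gave 4 higher (Psma1, Psmd8, Psme1 and Psmg4) and 1 lower (Psmd2). Of 10 myeloid markers 3, and of 8 stromal markers 1, were higher, and of 5 B cell markers 2 were lower, and their part was not tested.

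In the Tal1 tumours, 3 members were higher and 2 lower, against 3.1% and 1.86% of all genes. Psma3 was at 4554 and 4249, above all 45 other tumours, whose highest was 3626 (0.65 ± 0.13, adjusted p = 0.00205). Psmd11, a lid subunit, was at 3601 and 2746, against a median of 2141 (0.53 ± 0.14, adjusted p = 0.0165), and Psma2 at 3669 and 4094, against 2494 (0.54 ± 0.16, adjusted p = 0.0369). The lid subunit Psmd7 was at 209 and 274, against 417 (−0.84 ± 0.23, adjusted p = 0.0272), while its other probe set gave 0.41. Psmd10, a chaperone of the base also known as gankyrin, was at 135 and 153, against 210.2 (−0.56 ± 0.16, adjusted p = 0.0342). No member was called after quantile normalization, when 0.488% of all genes were higher and 0.329% lower. Leaving out a tumour leaves 1 in this background, which the fit then assumes to vary like the other groups. Without tumour 1 no member was called by limma, with differences of 0.60 for Psma3, 0.62 for Psma2, 0.34 for Psmd11, −0.66 for Psmd7 and −0.48 for Psmd10. Without tumour 2, Psma2 (0.46), Psmd7 (−1.02) and Psmd10 (−0.64) were not called. Of 7 endothelial markers 1, Pecam1, was lower in this background, and its part was not tested.

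In the tumours labelled Nup98HoxD13, 2 members were higher and 0 lower (5 and 4 at an unadjusted p below 0.05 by limma), against 1.37% and 1.63% of all genes. Psme4, an activator that opens the core in the nucleus, was at 732, 1235 and 1556, the last the highest of all 47 tumours (0.68 ± 0.17, adjusted p = 0.0206), and its other probe sets gave 0.58 to 0.61. Psmd10 was at 237, 311 and 341, against a median of 202 (0.47 ± 0.13, adjusted p = 0.0421). Neither was called without tumour 2 or without tumour 3, and without Pokemon tumour 2 Psme4 alone was called. Without p53 knockout tumour 2, Psma2 and Psma3 were lower as well.

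No member was called by limma in the other 6 backgrounds, and the values for all genes stand beside each. In LMO1, 0.669% of all genes were higher and 0.363% lower, and 2 members were higher and 1 lower at an unadjusted p below 0.05. In Tal1-LMO2, 1.44% were higher and 5.23% lower, with 4 members higher and 0 lower at that unadjusted level. The tumours labelled olig1-LMO1 had 0.204% higher and 0.454% lower, with 3 members higher and 0 lower unadjusted. E2A knockout had 1.51% and 2.83%, with 4 members higher and 2 lower unadjusted. Rag E2A knockout had 0.295% and 1.26%, with 5 members higher and 0 lower unadjusted. Pokemon had 0.352% and 0.601%, again with 5 and 0. The lowest adjusted p was 0.0551 in LMO1 and 0.0836 in Pokemon. Psme4 was called higher in LMO1 when any of 9 tumours of other backgrounds was left out, and Psmd10 in Pokemon without rag E2A knockout tumour 2. Psme4 was at 1148, 906 and 1269 in the LMO1 tumours and at 503 and 553 in the E2A knockout tumours. Psmb2 was at 1908 and 1564 in the rag E2A knockout tumours. In the Pokemon tumours the lid subunits Psmd7 and Psmd6 were high, at 732 and 677 for Psmd7 and at 2159 and 2378 for Psmd6, and neither passed the threshold.

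The catalytic subunits varied to different degrees. The background mean of Psmb5 ran from 10.30 ± 0.16 (SD, n = 3) in Ikaros Plastic to 11.03 ± 0.35 (SD, n = 3) in Tal1-LMO2. That of Psmb7 ran from 11.37 ± 0.08 (SD, n = 3) in Ikaros Plastic to 11.98 ± 0.71 (SD, n = 2) in Tal1. Both were lowest in the same background as the family mean, and neither passed the F test with all tumours included (Psmb7 passed without Tal1 tumour 1, adjusted p = 0.034). Psmb10 had a wide range of background means, 1.37 on the log2 scale, as did Psmb2 (1.76), Psmg4 (1.60), Psmd7 (1.498), Psmg2 (1.44) and Psma6 (1.28).

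Each member was then set against the mean of the other 42 members in the same tumour, called the family mean here. The median SD of a member over the 47 tumours was 0.343, and 0.271 relative to it, with a smaller SD in 37 of 43 members. The median SD of all genes tested was 0.499. Those genes had to exceed the array median on at least 2 arrays only, whereas all 43 members did so on all 47. The SDs are therefore not compared at like signal. The members that followed the family mean most closely were Psmb4 (SD 0.150), Psma7 (0.161), Psmb1 (0.186), Psmb7 (0.186) and Psma5 (0.201), all subunits of the core rings. Those that followed it least were Psmb10 (0.612), Psmb2 (0.558), Psmg2 (0.520), Psmc1 (0.497), Psme4 (0.462), Psme3 (0.460) and Psmg4 (0.451).

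Relative to the family mean, the Ikaros Plastic tumours still had low Psma6 (−0.57), Psmg3 (−0.43), Psmb3 (−0.37), Psmb6 (−0.30) and Psmd4 (−0.25), while Psmd11 (−0.02) moved with the family. In the TLX1 tumours Psmb2 was −1.11 relative to the family. In the Cdkn2a RIM tumours Psmb10 was −0.76, Psmc1 0.83 and Psmg2 0.70. The lowest relative values of Psmg4, Psmd7 and Psmd2 were −0.92 in p53 knockout, −0.82 in Tal1 and −0.74 in ThPOK. These values show which members departed from the family in which background, and they were not tested.

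**Figure D4:**
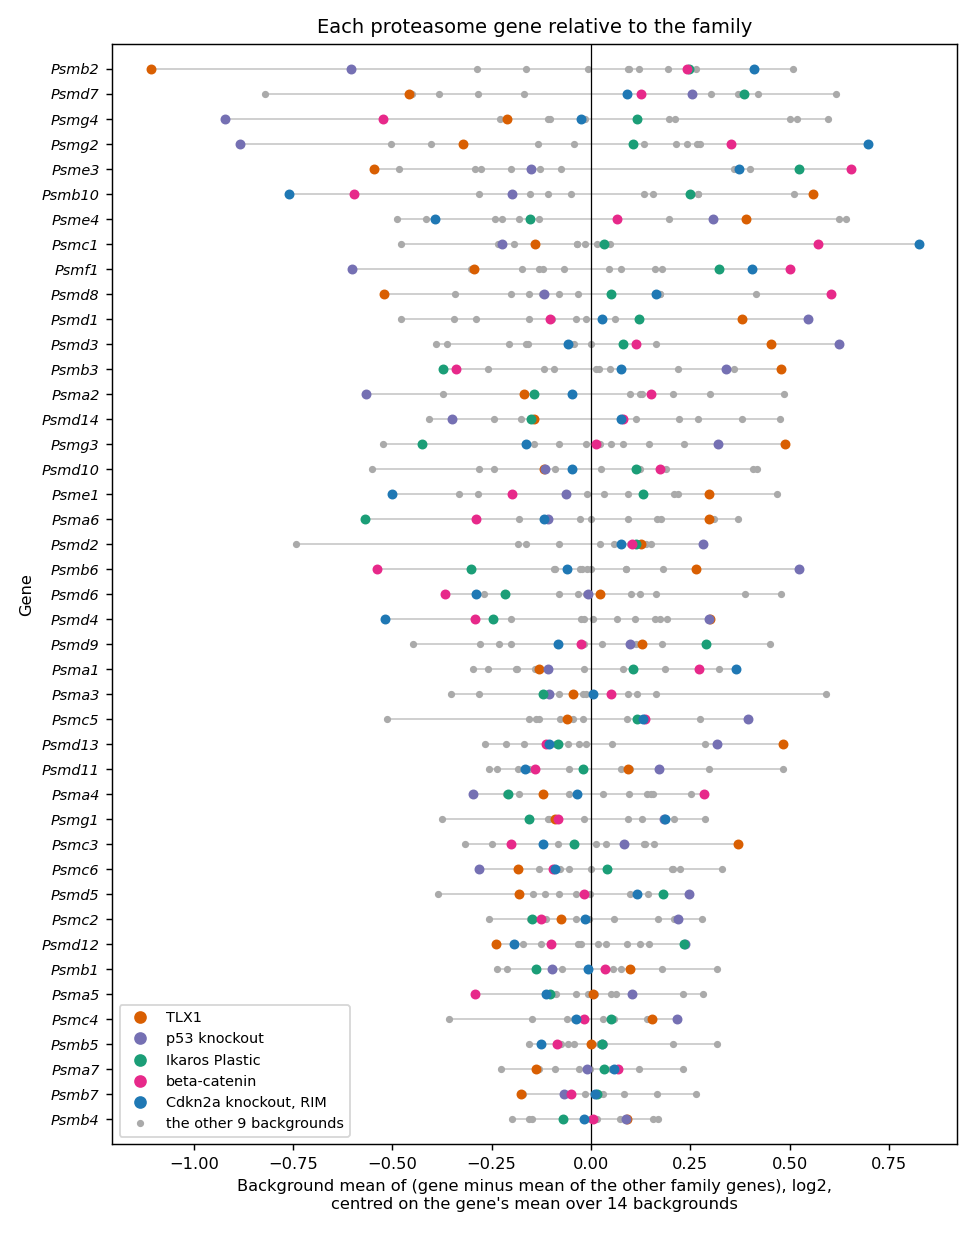
Mean of each member relative to the mean of the other family members (log2, centred on the member's mean over 14 backgrounds); points are background means, 5 backgrounds are coloured and the other 9 are grey, and RIM stands for retroviral insertional mutagenesis. Psmb2 is low in TLX1 (−1.11), Psmb10 is low and Psmc1 high in Cdkn2a RIM (−0.76 and 0.83), and the points of Psmb4, at the bottom, span 0.368 in all.

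A list of 35 symbols covered genes that work with the proteasome (ubiquitin receptors, deubiquitinases, assembly and transcription factors). Some symbols are other names of a gene also listed, such as Shfm1 for Sem1. The list had 22 measured members, and 18 differed over the backgrounds, where 68.1% of all genes did. In the Ikaros Plastic tumours 3 of the 22 were lower (Sem1, Bag6 and Txnl1) and 1 was higher (Nfe2l1), against 7.85% lower and 15% higher among all genes. The median difference there was 0.09 for the list and 0.09 for all genes. Sem1, a small lid subunit outside the naming rule, was lower by −0.50 ± 0.14 (adjusted p = 0.00805), and Txnl1, a thioredoxin that binds the regulatory particle, by −0.97 ± 0.20 (adjusted p = 0.00109). Nfe2l1, the activator of subunit genes, was higher by 0.56 ± 0.19 in the Ikaros Plastic tumours (adjusted p = 0.0264), by 0.56 ± 0.19 in beta-catenin (adjusted p = 0.0305) and by 0.97 ± 0.19 in p53 knockout (adjusted p = 0.00038). In the first 2 of these backgrounds, subunit genes were lower. Usp14, a deubiquitinase of the proteasome, was lower in TLX1 (−0.61 ± 0.12, adjusted p = 0.000327) and higher in Cdkn2a RIM (0.36 ± 0.11, adjusted p = 0.00927). In TLX1, 1 of the 22 was higher and 5 were lower, against 19% and 12.5% of all genes. In p53 knockout, 3 were higher and 0 lower, against 12.4% and 9.34%. In beta-catenin, 2 were higher and 3 lower, against 11.4% and 7.42%, and in Cdkn2a RIM 4 and 3, against 16.1% and 14.6%.

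The list of immunoproteasome and peptide-loading genes had 10 measured members, of which 8 differed over the backgrounds, where 68.1% of all genes did. In the TLX1 tumours 4 were higher (Tap1, Tap2, Tapbp and Irf1) and 1 was lower (Pdia3), against 19% higher and 12.5% lower among all genes, with differences of 1.02 ± 0.21 for the peptide transporter Tap1 (adjusted p = 0.00042) and 0.94 ± 0.24 for its partner Tapbp (adjusted p = 0.00268). Psmb10 was higher in the same tumours, at 668 to 1653 with a median of 1013 (0.56 ± 0.22, adjusted p = 0.045). It was not called with the Gapdh ratio as a covariate, nor without the TLX1 tumours of high ratio. Tap1 and Tapbp are not given for those fits. The TLX1 tumours had a myeloid marker mean of up to 3.99 and a B cell marker mean of 0.21 to 2.64. The part of RNA quality and of these cells in the higher levels was not tested. In the Cdkn2a RIM tumours Tap1 was lower by −0.53 ± 0.18 (adjusted p = 0.0227) and Tapbp by −0.87 ± 0.20 (adjusted p = 0.0012). Psmb8 stood at −0.38 there (adjusted p = 0.0603), short of the threshold.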

How the data were processed

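Total RNA of 47 tumours was extracted with Trizol, labelled as biotinylated cRNA and hybridised to Affymetrix arrays, per the labels' protocols. The deposited values are MAS5 signal values, per the submitters' processing notes (version not given in the sources used here), on a linear scale. Genome build is not given in the sources used here. Of 22690 probe sets, 20380 carry 1 gene symbol in the platform annotation and 691 several. Signals were taken as log2(signal + 15.853), the 25th percentile, so fold changes of low genes are understated. A gene was tested if its probe set of highest mean exceeded the array median in at least 2 arrays. limma 3.58.1 in R 4.3.3 fitted 14 background means (eBayes with trend), an F test over them and contrasts of each mean with the equally weighted other 13. The number of arrays limits the precision. Members and lists were chosen with earlier results of these data known. Values are named for the 12 members of lowest F p, catalytic subunits, activators and the inhibitor, up to 3 called per direction per background, and up to 4 genes per partner list; other members are given by role, range and calls. Motifs were searched in the 250 bases before the start, leaving out the 50 after it. The p53 gene itself is not reported here.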

Additional observations from a re-analysis of the deposited data

Results flagged for a closer look

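Of 88 tests for a tumour far from the rest of its background, run for 43 members and the family mean in the TLX1 and Cdkn2a RIM backgrounds, 12 found a tumour whose gap to the next exceeded Dixon's 95% critical value. Chance alone flags about 1 in 20 groups. TLX1 tumour 3 was the lowest of 6 for Psmb3, at a log2 value of 10.70 against 11.21 to 11.42 in the others, and this is a member called higher in that background. The same tumour was the lowest for Psmc2 (10.30, against 10.86 to 11.12) and Psmd11 (10.86, against 11.20 to 11.28).

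Cdkn2a RIM tumour 8 was the lowest of 9 for 5 members. It stood at 10.33 for Psma1 (others 10.68 to 10.90), 11.27 for Psmb7 (11.55 to 11.74), 9.24 for Psmc4 (9.89 to 10.12), 10.65 for Psmd14 (11.06 to 11.47) and 7.45 for Psmg3 (8.34 to 8.81). It was the highest for Psmg2, at 10.90 against 9.62 to 10.25. Tumour 2 of this background was the highest for Psmb1 (11.33, others 10.71 to 10.93) and Psmb3 (11.10, others 10.62 to 10.82), and tumour 9 the lowest for Psmd2 (9.85, others 10.21 to 10.56).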

How the results depend on the processing

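Counts of called members moved by over 1.5 times under several settings. Quantile normalization gave 5 in ThPOK (all genes 5.55% higher and 4.84% lower), 0 in Tal1 and 9 in Ikaros Plastic. It moved the median of all genes by −0.16 in Ikaros Plastic, 0.11 in Tal1, 0.11 in Tal1-LMO2 and 0.10 in E2A knockout. A pseudocount of 1 gave 1 in LMO1, and no filter gave 5 in ThPOK and 1 in Nup98HoxD13. The probe set of largest interquartile range gave 2 in LMO1, 2 in Tal1-LMO2, 2 in E2A knockout, 1 in Pokemon, 11 in Ikaros Plastic and 5 in beta-catenin, and it reversed Psmb3 in TLX1 (−0.0501), Psmd7 in Tal1 (0.41) and Psmd4 in Ikaros Plastic (0.76), beta-catenin (0.74) and Cdkn2a RIM (0.59). The Gapdh covariate gave 1 in TLX1 and 1 in Nup98HoxD13, and reversed Psme3 (0.0583) and Psmd8 (0.117) in TLX1. Array weights gave 5 in p53 knockout, 13 in ThPOK, 3 in Tal1, 5 in LMO1, 2 in Tal1-LMO2, 2 in rag E2A knockout, 5 in Nup98HoxD13, 5 in Pokemon and 20 in beta-catenin. Leaving out TLX1 tumours 2, 5 and 6, chosen after seeing the data, gave 2 in TLX1. The cause of these changes was not tested. The labels do not say whether same-numbered tumours of different backgrounds share more than the number. Their median correlation of deviations was −0.00315 over 230 pairs (−0.278 to 0.32), which cannot show whether some share a batch. A replicate block for the tumour number gave 5 in TLX1, 5 in ThPOK, 3 in Tal1, 1 in Nup98HoxD13 and 7 in Cdkn2a RIM. Leaving out each tumour in turn gave ranges of 7 to 18 in TLX1, 5 to 10 in p53 knockout, 1 to 8 in ThPOK, 0 to 5 in Tal1, 0 to 1 in LMO1, Tal1-LMO2 and Pokemon, 0 to 4 in Nup98HoxD13, 4 to 19 in Ikaros Plastic, 2 to 10 in beta-catenin, 10 to 16 in Cdkn2a RIM and 30 to 37 for the F test. Of the 35 named differences, 19 lost the threshold in at least 1 such fit; there were 31 losses in all, 30 of them on leaving out a tumour of the same background, and none reversed. Groups of 2 or 3 tumours limit the precision, and MAS5 signals come without detection calls here, so signal over background could be judged against the array median only.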

Other observations

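Psme3ip1, which binds the activator Psme3 and matches the naming rule, was lower in Ikaros Plastic (−0.49, adjusted p = 0.00573 by limma) and in Cdkn2a RIM (−0.30, adjusted p = 0.00403). Psmc3ip, a meiotic recombination factor named for its binding to Psmc3, had an F test adjusted p of 0.831 over the backgrounds. In the partner list, the segregase Vcp was higher in TLX1 (0.37 ± 0.10, adjusted p = 0.00536) and in p53 knockout (0.56 ± 0.14, adjusted p = 0.00422) and lower in Cdkn2a RIM (−0.30 ± 0.09, adjusted p = 0.00863). Pomp, a chaperone of the core, had an F test adjusted p of 0.548.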
